A study of Mus musculus with 9 samples.

Results

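The genes for the linker histone H1 and for the core histones H2A, H2B, H3 and H4 were followed in YAMC mouse intestinal cells in which Cdk8 had been knocked out. Members were the protein-coding mouse genes whose current symbol begins with H1f, H2ac, H2bc, H2az, H3c, H3f3 or H4c followed by a gene number or letter. The deposited table held 71 of them among 28059 Entrez gene IDs; the RefSeq gene table of GRCm38.p6 names 72, and H3f3c was not analysed here. Of the 71, 60 were replication-dependent genes, 6 were replacement genes and 5 were germline genes. RNA had been sequenced from Cdk8 knockout clone 1, from Cdk8 knockout clone 19 and from parental cells, with 3 libraries in each group. Both clones were made by CRISPR, the parental genotype is labelled wildtype, and every group was harvested from logarithmic growth at 32 °C. YAMC cells are known as a line from the colon of young adult mice that carry a temperature-sensitive SV40 large T antigen, so the parental cells are immortalized too; the labels give small intestine as the tissue. Each clone is a single isolate, and a control clone that kept Cdk8 is not analysed here, so an effect of the knockout and one of picking a single cell cannot be told apart.

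Histones package DNA: H2A, H2B, H3 and H4 form the core of the nucleosome, and H1 binds the DNA that enters and leaves it. Replication-dependent histone genes lie in clusters, have no introns as a rule and are transcribed mainly in S phase; their mRNAs end in a conserved stem-loop that binds the protein SLBP, in place of a poly(A) tail. Replacement histones are made throughout the cell cycle from single genes whose mRNAs are polyadenylated. Some replication-dependent genes are known to give polyadenylated transcripts as well, in differentiated cells above all. Libraries here were made with a TruSeq RNA kit, which as commonly sold selects polyadenylated RNA; the labels do not say whether RNA was selected in that way, and if it was, RNA without a poly(A) tail is under-represented in every group.

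The sequences on which the measurement turns are the 3' ends and the near-identical coding parts. The stem-loop was searched in GENCODE M21 transcripts on the sense strand as GG, any 2 bases, CTTTT, any base, AG, any 2 bases and CC. It was found in 40 of 60 replication-dependent members and in 0 of 6 replacement members, against 0.329% of 21901 protein-coding genes. Some transcripts without a match, such as those of H2ac13, H2bc15, H3c10 and H4c12, are annotated with 0 bases after the stop codon. The search could not find a 3' stem-loop in these, so 40 can be too low. H1f2, the highest linker gene of the replication-dependent class, and H4c9, its highest H4 gene, both hold it, as do H1f4, a low H1 gene, and H2bc11, a low H2B gene. They are shown with 5 flanking bases on each side, 5' to 3', with the stem-loop in capitals.
H1f2: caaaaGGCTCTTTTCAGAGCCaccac
H4c9: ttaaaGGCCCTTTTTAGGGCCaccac
H1f4: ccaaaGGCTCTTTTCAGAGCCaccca
H2bc11: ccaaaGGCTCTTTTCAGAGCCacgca
The annotated H1f2 transcript went on for 840 bases past its stem-loop and that of H4c9 for 330 bases, and both held AATAAA or ATTAAA, the signal for poly(A) addition, in their last 60 bases. That of H2bc11 ended 23 bases past the loop. The annotated transcript of H2bc4, the highest H2B gene, held no match to the stem-loop and no such signal in its last 60 bases. It has 2 exons: the first ends 9 bases after the stop codon, and the second adds 733 bases. H2bc4 was 1 of 2 replication-dependent members with an annotated exon after the stop codon; the other was H2bc23, which was at 0 in every library. Of 18 replication-dependent members with a transcript running more than 100 bases past the loop, 2 passed the low-value filter used for the tests. Among all 60 replication-dependent members, 4 passed it. H2bc4 is not among the 18, as it holds no loop, but its transcript has 742 bases after the stop codon. H1f4, with 1153 bases past the loop, stayed at 0.156 to 0.376 RPKM in all 9 libraries. The deposited values can rest on shorter gene models, however. Read back as whole reads, low values implied models of 312 bases for H4c4 and H4c3, whose annotated transcripts have 1138 and 820 bases. For H2ac6 the implied model had about 2490 bases, near its annotated 2482. Reads past the loop are not counted in a short model, so these counts cannot show whether a longer 3' end goes with level. The 6 replacement members all held the poly(A) signal. So did 12 of the 60 replication-dependent members, of which 2 passed the filter.

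Near-identical copies limit what a read can be assigned to. The H2bc4 coding sequence of 381 bases differed from that of H2bc23 at 2 bases, from H2bc11 at 4, from H2bc8 at 5 and from H2bc21, on chromosome 3, at 50. The first 60 coding bases of these genes are set under each other, with the bases that differ from H2bc4 in capitals.
H2bc4: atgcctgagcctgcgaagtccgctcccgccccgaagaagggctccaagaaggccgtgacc
H2bc23: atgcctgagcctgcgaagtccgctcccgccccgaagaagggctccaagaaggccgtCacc
H2bc11: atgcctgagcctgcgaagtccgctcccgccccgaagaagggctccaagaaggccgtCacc
H2bc8: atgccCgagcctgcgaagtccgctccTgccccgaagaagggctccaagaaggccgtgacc
H2bc21: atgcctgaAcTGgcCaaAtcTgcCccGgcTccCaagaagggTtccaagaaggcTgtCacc
Over all annotated transcripts, 91.5% of the 50-base windows of H1f2 occurred in no other gene, against 69.4% for H2bc4, 71.1% for H4c9 and 40.6% for H2bc11. H2bc4 shared 23.1% of its windows with H2bc8, and H2bc11 shared 59.4% with H2bc23. The read length, and how reads that match several genes were counted, are not stated in the labels, so the levels of members with few unique windows are uncertain. The 6 replication-dependent members at 0 in every library (H2ac19, H2ac23, H2ac24, H2bc23, H3c14 and H4c17) had 0% to 10.2% unique windows, with a median of 4.59%. The 24 that were above 0 in every library had 0% to 100%, with a median of 64%. Not all of this sharing is with another member. All windows of H3c14 also occurred in the annotated gene Gm20634, against 34.7% in the member H3c15, and all windows of H2bc18 in Gm20628. The plot of level against unique windows shows that no member with under 40.6% unique windows reached the filter. The 56 members under the filter had 0% to 100%, with a median of 40.8%, so many with more unique windows stayed low too.

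**Figure D1:**
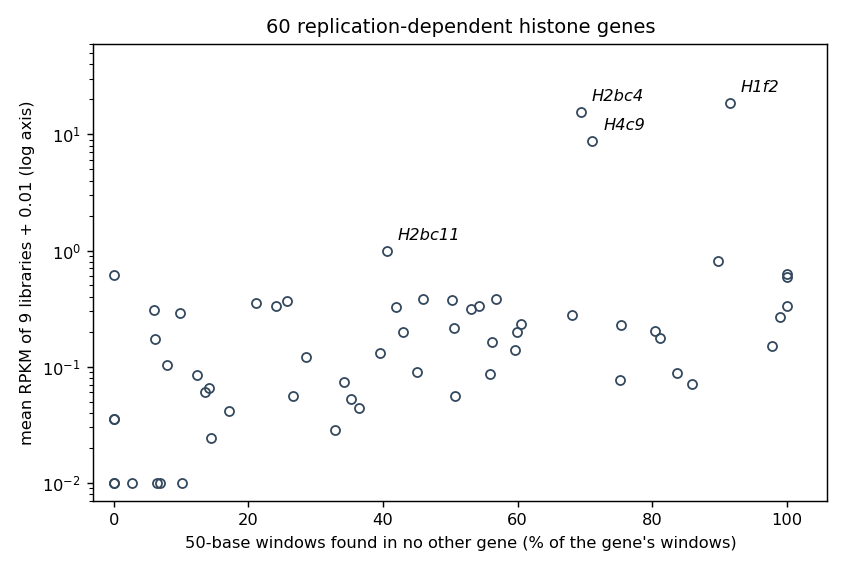
The mean RPKM of 9 libraries plus 0.01 (log axis) is plotted for each of 60 replication-dependent histone genes against the percentage of its 50-base windows that occur in no other gene; each circle is 1 gene. The 6 genes at 0 lie at the lower left, at 0% to 10.2% unique windows, and H1f2, H2bc4 and H4c9 stand above all others at 69.4% to 91.5%.

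Levels are in RPKM, which scales reads by gene length and by library size, so they can be set side by side between genes. The depth estimated from single-read values ran from 23.2 to 33.4 megareads in the 6 clone libraries and from 28.2 to 44.2 megareads in the 3 parental libraries. Cdk8 mRNA averaged 11 ± 0.658 RPKM in clone 1, 10.4 ± 0.157 in clone 19 and 17.6 ± 0.125 in parental cells (SD, n = 3 each); it was lower in both clones but not lost, and reads per gene do not check a small lesion. Of 6 markers of simple epithelium, Krt8, Krt18 and Krt19 were at 96.9 RPKM or more in every library while Epcam and Cldn7 were under 1 RPKM in every library, all 7 markers of intestinal epithelium were under 1 RPKM, with Cdx2 at 0, and the 4 fibroblast markers summed to 1370 to 1410 RPKM in clone 1, 1120 to 1190 in clone 19 and 1620 to 1670 in parental cells. The 6 epithelial markers summed to 986 to 1040 RPKM in clone 1, 969 to 975 in clone 19 and 613 to 632 in parental cells, and their part in the histone levels was not tested. All 4 immune markers were under 1 RPKM.

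Replacement genes made up most of the summed RPKM of the members in all 3 groups. All 6 of them passed the filter, which asked for at least 1 RPKM in at least 3 of 9 libraries; their mean levels over all libraries ran from 10.4 to 219 RPKM, with a median of 21 RPKM. Of the 60 replication-dependent genes, 4 passed the filter (H1f2, H2bc4, H4c9 and H2bc11) and 52 stayed under 1 RPKM in every library, and the median of their mean levels was 0.158 RPKM. The 5 germline genes (H1f6, H1f7, H1f8, H2ac1 and H2bc1) had mean levels of at most 0.0127 RPKM, and 3 of them were at 0 throughout. Summed over its 60 genes, the replication-dependent class gave 13.1% ± 0.417 of the RPKM of all members in clone 1, 10.8% ± 0.412 in clone 19 and 6.30% ± 0.329 in parental cells (SD, n = 3 each). Since these are bulk samples, fewer cells in S phase and less RNA per cell cannot be told apart. Selection for a poly(A) tail, reads shared between copies and short gene models, described above, can also affect these levels. Their part was not tested.

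**Figure D2:**
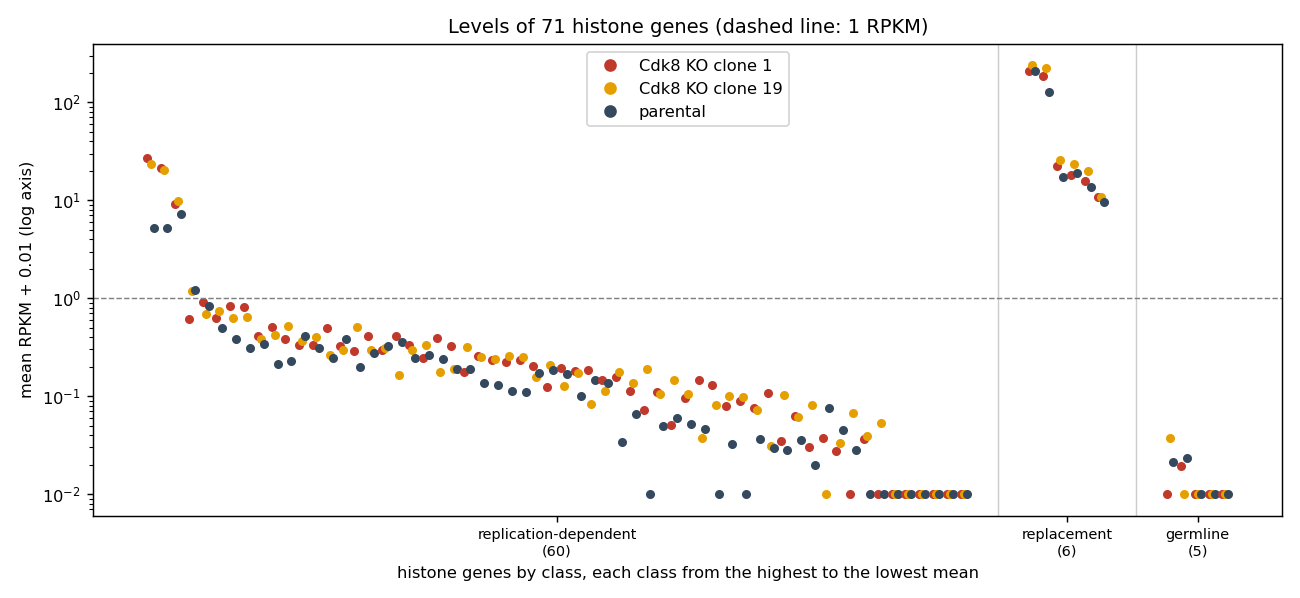
The mean RPKM plus 0.01 of 3 libraries (log axis) is plotted for 71 histone genes in clone 1, clone 19 and parental cells, ordered within each class from the highest to the lowest mean. The 6 replacement genes lie above the dashed line at 1 RPKM, and 3 replication-dependent genes stand far above the rest of their class; the points at the bottom are values of 0.

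Among the replication-dependent genes, the linker gene H1f2 and the core gene H2bc4 stood highest in both clones, while H4c9 was highest in parental cells. H1f2 encodes the somatic linker histone H1.2. It was at 26.6, 28.4 and 26.1 RPKM in clone 1, at 23.1, 25 and 22.8 RPKM in clone 19, and at 5.26, 5.33 and 5.07 RPKM in parental cells. Every clone library lay above every parental library, and the parental libraries lay close together. On the log2(RPKM + 0.5) scale used for all fold changes here, H1f2 rose by 2.27 ± 0.04 in clone 1 (SE; limma, adjusted p = 1.9e-11) and by 2.08 ± 0.04 in clone 19 (adjusted p = 3.5e-11). These are folds of 4.81 and 4.22, and they ranked 11 and 12 from the top among 12568 tested genes. The difference between the clones was itself called, at -0.19 for clone 19 minus clone 1 (limma, adjusted p = 0.0049).

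H2bc4, a core histone H2B gene, was at 21.7, 22.2 and 20.7 RPKM in clone 1, at 21.8, 20.3 and 18.5 RPKM in clone 19, and at 5.22, 5.15 and 5.15 RPKM in parental cells. The clones overlapped with each other and not with the parental libraries. H2bc4 rose by 1.96 ± 0.05 in clone 1 (SE; limma, adjusted p = 1.4e-10) and by 1.86 ± 0.05 in clone 19 (adjusted p = 2.0e-10), and its difference between the clones was not called (-0.09, limma, adjusted p = 0.18). A rise of at least 2-fold was called in both clones for 1.11% of tested genes.

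The genes beside H1f2 and H2bc4 stayed low. In the gene order of chromosome 13, H1f6, H4c3 and Hfe lie between H2bc4 and H1f2. H2ac6, the H2A gene next to H2bc4, averaged 0.0696 ± 0.0383 RPKM in clone 1, 0.0911 ± 0.0396 in clone 19 and 0.0226 ± 0.00907 in parental cells (SD, n = 3 each). H4c3 averaged 0.225 ± 0.0440, 0.232 ± 0.220 and 0.121 ± 0.151 RPKM in clone 1, clone 19 and parental cells. Hfe, which encodes a regulator of iron uptake and is no histone gene, averaged 0.496 ± 0.0786 RPKM in clone 1, 0.610 ± 0.0626 in clone 19 and 0.819 ± 0.132 in parental cells. The sister linker gene H1f4 averaged 0.235 ± 0.0734, 0.326 ± 0.0680 and 0.254 ± 0.0174 RPKM in clone 1, clone 19 and parental cells, and those values overlapped. Neither H1f2 nor H2bc4 had a mean of 1 RPKM in any group among the 2 nearest genes on either side.

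H1f2 and H1f4 share elements of the H1 promoter, and H1f3 and H1f5, which were also low, hold them too. The H1 box AAACACA, the general promoter element CCAAT, the TATA box as TATAAA and the octamer of H2B promoters as ATTTGCAT were searched, each letter for letter, on both strands of RefSeq promoters of build GRCm38.p6, from 250 bases before to 50 bases after the start site. H2bc4 had no promoter entry, so its promoter could not be searched. CCAAT occurred in 85.5% of 55 replication-dependent members with an entry, 66.7% of 6 replacement members and 41.1% of all 27025 genes. TATAAA occurred in 58.2%, 16.7% and 15.7%, ATTTGCAT in 20%, 16.7% and 1.97%, and AAACACA in 10.9%, 16.7% and 8.22%. The 6 replication-dependent members with AAACACA were H1f2, H1f3, H1f4, H1f5, H2ac4 and H2bc14, so most were H1 genes. H1f1, the remaining H1 gene of the class, held CCAAT but not AAACACA. H1f3, H1f4 and H1f5 held both AAACACA and CCAAT, as H1f2 did, and stayed under the filter. The 150 bases before the start site are shown for H1f2 (chr13:23738657-23738806, plus strand), which rose, for its low sister gene H1f4 (chr13:23622559-23622708, minus strand) and for H4c9 (chr13:22041363-22041512, minus strand), 5' to 3' on the gene's strand with motif matches in capitals.
H1f2: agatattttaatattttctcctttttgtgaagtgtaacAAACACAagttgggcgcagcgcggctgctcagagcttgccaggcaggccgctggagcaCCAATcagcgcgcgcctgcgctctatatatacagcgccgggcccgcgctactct
H1f4: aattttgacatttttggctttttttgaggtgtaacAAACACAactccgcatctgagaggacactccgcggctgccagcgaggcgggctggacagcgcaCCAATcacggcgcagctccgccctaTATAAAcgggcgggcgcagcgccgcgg
H4c9: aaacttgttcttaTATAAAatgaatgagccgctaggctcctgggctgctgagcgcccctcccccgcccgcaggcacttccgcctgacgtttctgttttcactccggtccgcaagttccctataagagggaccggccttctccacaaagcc
AAACACA began 112 bases before the start of H1f2 and 115 bases before that of H1f4, and CCAAT began 54 and 52 bases before it. H1f4 also held TATAAA, 27 bases before the start, where these letters were not found in the H1f2 window. H4c9 held TATAAA 137 bases before its start and none of the other motifs. Other TATA-like letters, such as tatatata in the H1f2 window and tataag in that of H4c9, were not searched. A match is a description of the letters, not of a bound site.

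H4c9 and H2bc11 were the other replication-dependent genes that passed the filter. H4c9, an H4 gene, was at 10.2, 9.29 and 7.81 RPKM in clone 1, at 10.6, 10.3 and 8.93 RPKM in clone 19, and at 7.12, 6.79 and 7.54 RPKM in parental cells. The lowest library of each clone lay above the highest parental library, by little in clone 1. H4c9 rose by 0.32 ± 0.09 in clone 1 (SE; limma, adjusted p = 0.0068) and by 0.44 ± 0.09 in clone 19 (adjusted p = 9.2e-04), and the difference between the clones was not called (0.12, limma, adjusted p = 0.28).

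H2bc11, an H2B gene, passed the filter only through clone 19 and parental cells, the groups in which it is high, so its difference there is given as a description. It was at 0.904, 0.402 and 0.501 RPKM in clone 1, at 1.25, 1.1 and 1.16 RPKM in clone 19, and at 1.19, 1.02 and 1.35 RPKM in parental cells. Read back as whole reads, these values stood for about 8, 5 and 6 reads in clone 1, 14, 14 and 11 reads in clone 19, and 20, 11 and 17 reads in parental cells. The log2 difference from parental cells was -0.64 ± 0.14 in clone 1 (SE) and -0.01 in clone 19. In a fit of 21679 genes with no filter, the difference in clone 1 was also -0.64 and that of clone 19 minus clone 1 was 0.63. That fit uses the same libraries, so it adds no separate support. At this depth the value rests on few reads, and most of its windows are shared with other H2B genes.

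**Figure D3:**
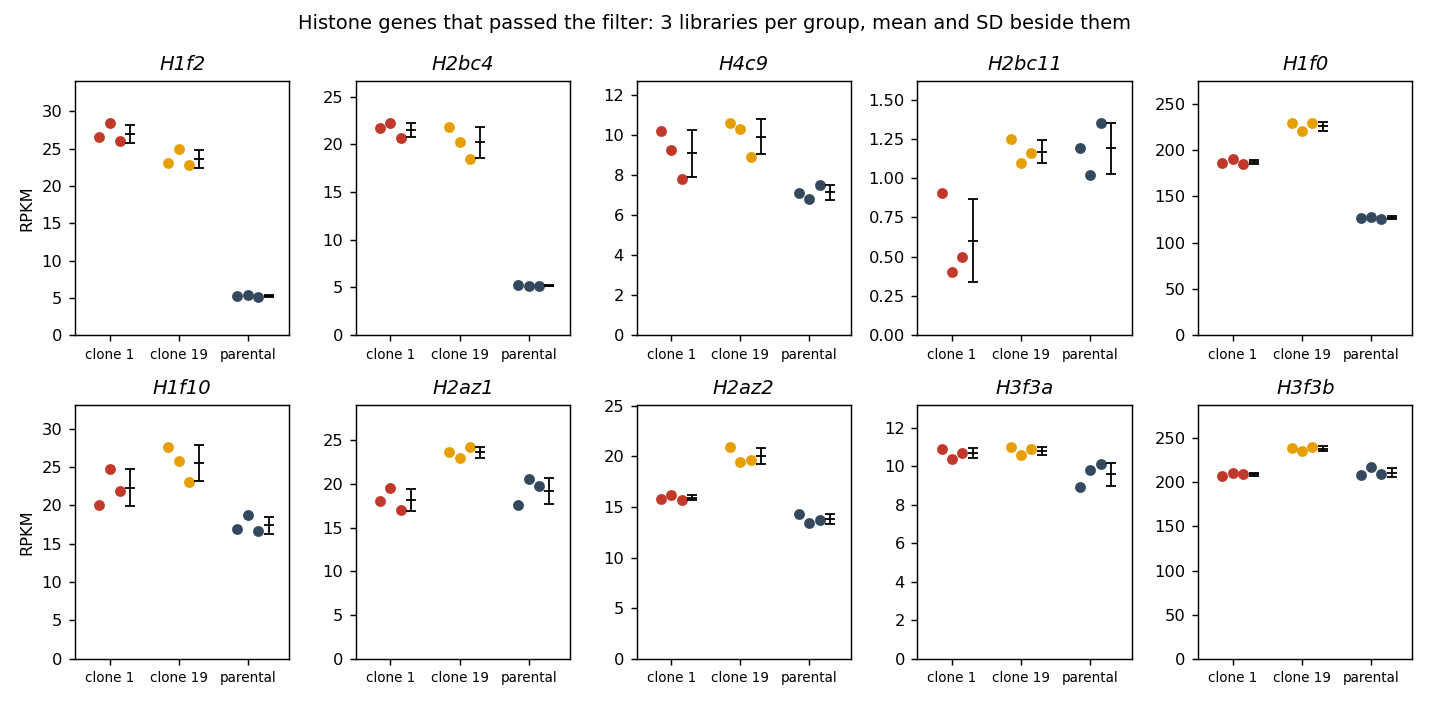
RPKM is plotted for the 10 histone genes that passed the filter, with 1 point per library and the mean and SD of 3 libraries beside each group; every axis starts at 0. H1f2 and H2bc4 show the widest gap between the clones and parental cells, H1f0 lies above parental cells in both clones with clone 19 highest, and H2bc11 is low in clone 1 alone.

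Taking the replication-dependent genes that could be tested, 3 were called higher and 1 lower in clone 1, where 39.8% of all tested genes were called higher and 32.6% lower. In clone 19, 3 were called higher and 0 lower, against 36.7% and 32.3% of all tested genes. The gene called lower was H2bc11, whose test rests on the groups that brought it past the filter, and the 56 genes under the filter could enter neither count. With so large a share of all genes called, these counts say little beyond the values of the 4 genes.

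The 56 replication-dependent genes under the filter were read as levels. Their highest mean was 0.800 RPKM, for H4c4, and together they summed to 11.3, 12.5 and 11.6 RPKM in clone 1, to 12, 9.45 and 11.7 RPKM in clone 19, and to 7.62, 7.60 and 8.86 RPKM in parental cells. Every clone library was above every parental library, by a ratio of means of 1.47 for clone 1 and 1.38 for clone 19. Whole reads could be read back for 47 low replication-dependent genes, H2bc11 among them, with at most 21 reads per gene in a library; these summed to 119, 183 and 164 reads in clone 1, 163, 154 and 134 reads in clone 19, and 156, 99 and 138 reads in parental cells. Without division by depth those read sums overlapped between the groups. For 7 of the 56 genes (12.5%) every clone 1 library was above every parental library, against 9.75% of 9059 other genes under the filter. For 9 (16.1%) every clone 19 library was, against 11.4%. Those 9059 genes were all above 0 in at least 1 library, while 6 of the 56 were at 0 in every library. Those 6 genes cannot differ between groups, so the shares of the 56 above parental cells or with a higher clone mean are understated. As given, the shares above parental cells were near the background. There were 0 genes for which every clone library was below, against 13.1% and 11% of the other genes, a gap that was not tested. The clone mean was the higher for 39 of 56 genes (69.6%) in clone 1, where it was for 45.7% of other low genes, and for 37 (66.1%) in clone 19, against 47.7%.

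H1f1, H2ac6, H2bc3 and H2bc6 were above parental cells in every library of both clones; they were picked out after their values were seen. H1f1, a linker gene whose 50-base windows are all unique, was at 0.691, 1.07 and 0.681 RPKM in clone 1, at 0.684, 0.602 and 0.594 RPKM in clone 19, and at 0.242, 0.379 and 0.283 RPKM in parental cells. In a fit with no filter, H1f1 was higher by 0.70 ± 0.12 in clone 1 and by 0.49 ± 0.12 in clone 19 (SE). It was picked by the same libraries, so this is a description. In that fit 4 of 50 low replication-dependent genes were called higher in clone 1 and 9 in clone 19, where 6.73% and 8.11% of all genes under the filter were, and 0 were called lower in either clone. H2bc3 averaged 0.216 ± 0.0403 RPKM in clone 1, 0.247 ± 0.0504 in clone 19 and 0.104 ± 0.0437 in parental cells (SD, n = 3 each), which its read-back put at 1 to 4 reads per library. The highest H2A gene of the class, H2ac8, averaged 0.401 ± 0.15, 0.378 ± 0.222 and 0.333 ± 0.0274 RPKM in clone 1, clone 19 and parental cells, and the highest H3 gene, H3c8, 0.498 ± 0.207, 0.409 ± 0.227 and 0.201 ± 0.0676 RPKM.

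By histone family, the gap in the replication-dependent sum lay mostly in H1 and H2B, the families of H1f2 and H2bc4. The 5 H1 genes summed to 28.9 ± 1.5 RPKM in clone 1, 25.5 ± 1.19 in clone 19 and 6.36 ± 0.154 in parental cells, and the 15 H2B genes to 24.9 ± 0.407, 24.2 ± 1.85 and 8.15 ± 0.645 RPKM (SD, n = 3 each). The 12 H4 genes summed to 12.2 ± 1.49 RPKM in clone 1, 12.3 ± 0.706 in clone 19 and 9.44 ± 0.175 in parental cells. The 16 H2A genes summed to 2.49 ± 0.117, 2.33 ± 0.514 and 1.73 ± 0.628 RPKM, and the 12 H3 genes to 1.65 ± 0.563, 1.62 ± 0.162 and 1.09 ± 0.137 RPKM. Over all 60 genes the sum came to 70.7, 72.8 and 66.7 RPKM in clone 1, to 68.7, 66.1 and 63.1 RPKM in clone 19, and to 26.4, 25.9 and 28.0 RPKM in parental cells, a ratio of 2.62 and 2.47. The 3 highest genes made up 82.3% ± 0.412 of it in clone 1, 81.5% ± 2.30 in clone 19 and 65.6% ± 1.82 in parental cells. Without H1f2 and H2bc4 the ratio was 1.32 in clone 1 and 1.35 in clone 19.

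**Figure D4:**
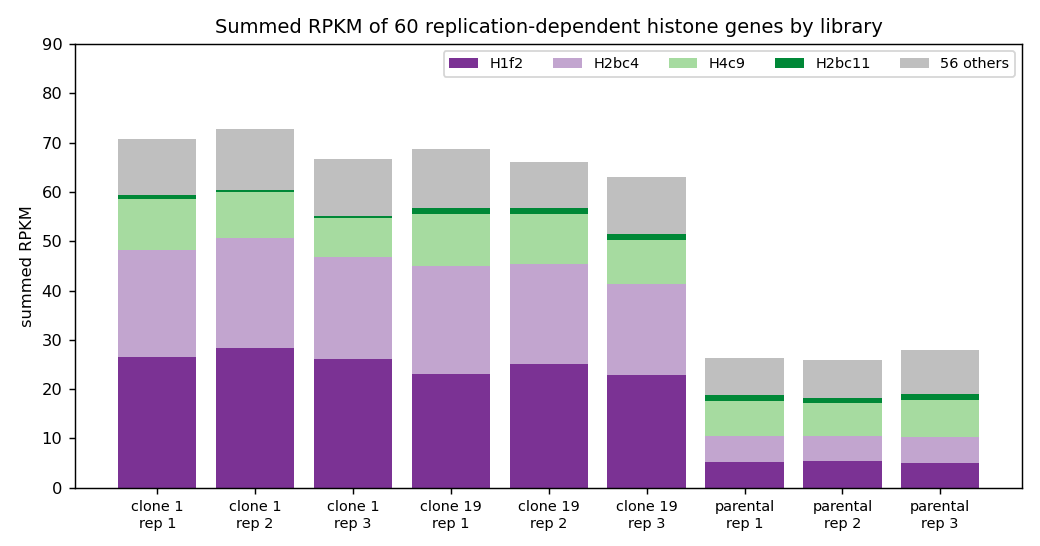
Summed RPKM of 60 replication-dependent histone genes is stacked by gene for each library of clone 1, clone 19 and parental cells. The clone libraries reach 63.1 to 72.8 RPKM and the parental libraries 25.9 to 28.0 RPKM, and H1f2 and H2bc4 fill most of the gap.

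The replacement genes moved less, and all 6 were higher in clone 19. Of the 6, 4 were called higher and 0 lower in clone 1, where 39.8% of all tested genes were called higher and 32.6% lower. In clone 19, 6 were called higher and 0 lower, against 36.7% and 32.3%. The median log2 fold change of the 6 was 0.17 in clone 1 and 0.40 in clone 19, against 0.03 and 0.02 over all tested genes. H1f0, the linker histone known for accumulating in cells that leave the cycle, was the member of this class with the largest rise. It was at 186, 190 and 185 RPKM in clone 1, at 229, 221 and 229 RPKM in clone 19, and at 127, 128 and 126 RPKM in parental cells. The 3 groups did not overlap. H1f0 rose by 0.55 ± 0.02 in clone 1 (SE; limma, adjusted p = 1.1e-09) and by 0.83 ± 0.02 in clone 19 (adjusted p = 7.8e-11), and clone 19 exceeded clone 1 by 0.28 (limma, adjusted p = 3.4e-06). H1f10, a linker histone found in most tissues, was at 20, 24.8 and 21.9 RPKM in clone 1, at 27.6, 25.8 and 23 RPKM in clone 19, and at 16.9, 18.7 and 16.7 RPKM in parental cells. It rose by 0.34 ± 0.08 in clone 1 (SE; limma, adjusted p = 0.0028) and by 0.53 ± 0.08 in clone 19 (adjusted p = 1.3e-04), with a difference between the clones of 0.19 that was not called (limma, adjusted p = 0.079).

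The H2A.Z genes H2az1 and H2az2, whose product marks nucleosomes at promoters, were higher in clone 19 than in clone 1. H2az1, whose transcripts share 30.9% of their windows with annotated transcripts of Tmcc1, was at 18, 19.5 and 17 RPKM in clone 1, at 23.6, 22.9 and 24.2 RPKM in clone 19, and at 17.6, 20.5 and 19.7 RPKM in parental cells. Clone 1 overlapped with parental cells and clone 19 did not: the log2 difference was -0.08 in clone 1 (limma, adjusted p = 0.24) and 0.29 in clone 19 (adjusted p = 0.0011). H2az2 was at 15.8, 16.2 and 15.7 RPKM in clone 1, at 20.9, 19.4 and 19.6 RPKM in clone 19, and at 14.3, 13.4 and 13.7 RPKM in parental cells. It rose by 0.20 in clone 1 (limma, adjusted p = 4.8e-04) and by 0.52 in clone 19 (adjusted p = 2.4e-07). The clones differed in both genes, by 0.37 for H2az1 (limma, adjusted p = 5.9e-04) and by 0.32 for H2az2 (adjusted p = 6.2e-05), and 18.5% of tested genes were called higher in clone 19 than in clone 1 and 24.5% lower.

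H3f3a and H3f3b both encode the replacement histone H3.3, and their coding sequences of 411 bases are 76.9% identical; 72.9% and 93.1% of their 50-base windows occurred in no other gene. H3f3b was the highest member, at 207, 211 and 210 RPKM in clone 1, at 239, 235 and 240 RPKM in clone 19, and at 208, 217 and 209 RPKM in parental cells. Clone 1 overlapped with parental cells, with a log2 difference of -0.01 (limma, adjusted p = 0.54), while clone 19 rose by 0.17 (adjusted p = 1.9e-05) and differed from clone 1 by 0.19 (adjusted p = 5.4e-05). H3f3a was at 10.9, 10.4 and 10.7 RPKM in clone 1, at 11, 10.6 and 10.9 RPKM in clone 19, and at 8.91, 9.80 and 10.1 RPKM in parental cells. It rose by 0.15 in clone 1 (limma, adjusted p = 0.011) and by 0.17 in clone 19 (adjusted p = 0.0052), with no call between the clones (0.02, adjusted p = 0.72).

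The calls of 4 replacement genes changed in 1 clone or both when the genes around them were subtracted. For each library, the 50 tested genes nearest on the chromosome, histone members left out, gave a median deviation that was then taken off, since long stretches of chromosome can shift together. H1f2 was then still higher, by 2.21 in clone 1 and 2.02 in clone 19, and H2bc4 by 1.90 and 1.81 (limma, adjusted p at most 3.3e-10). H2az2 became lower in clone 1, at -0.27 (limma, adjusted p = 1.5e-04), and stayed higher in clone 19, at 0.17 (adjusted p = 0.0038). H2az1 fell by 0.42 in clone 1 (adjusted p = 3.3e-05, limma) and was at -0.03 in clone 19 (adjusted p = 0.63). H3f3b fell by 0.12 in clone 1 (limma, adjusted p = 2.7e-04) and was at -0.0033 in clone 19 (adjusted p = 0.9). H3f3a was at -0.01 in clone 1 (limma, adjusted p = 0.91) and stayed higher in clone 19, at 0.18 (adjusted p = 0.0071), and its difference between the clones became called, at 0.19 (adjusted p = 0.013). The calls of these genes thus depend on whether their neighbours are subtracted; what moves the neighbours was not tested.

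**Figure D5:**
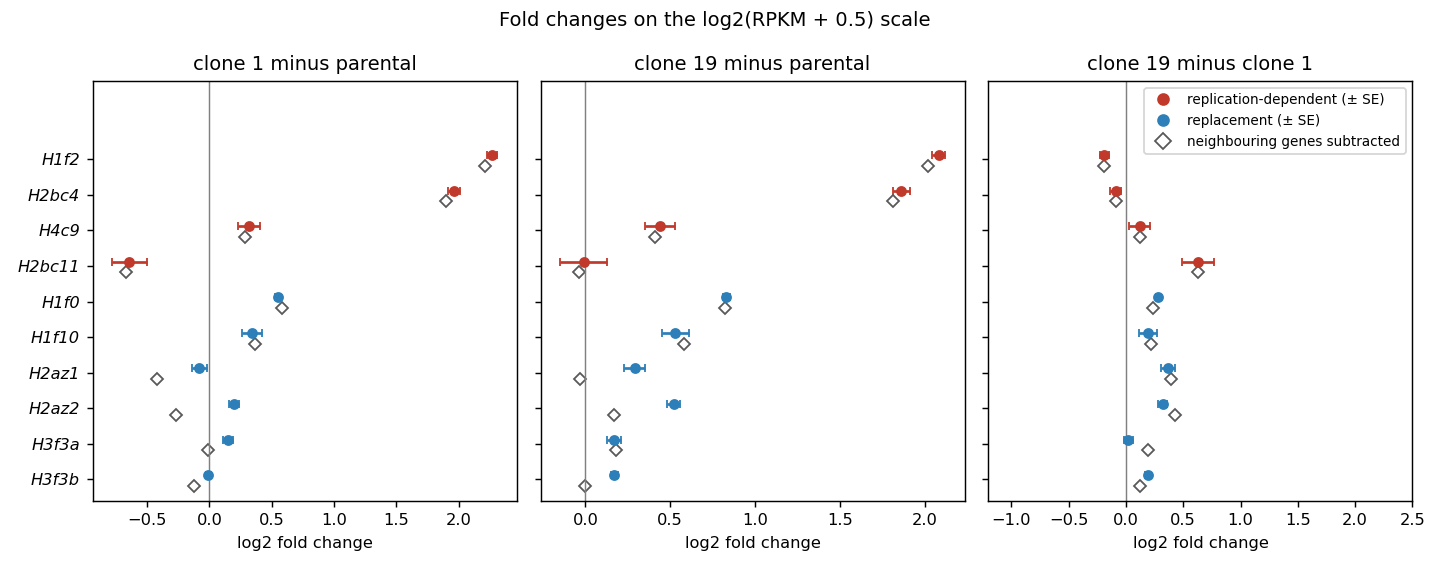
Log2 fold changes of 10 histone genes are plotted for clone 1 over parental cells, for clone 19 over parental cells and for clone 19 over clone 1, as filled points with SE and as open diamonds after the median of the 50 nearest genes was subtracted. H1f2 and H2bc4 lie near 2 in both clones either way, and the diamonds of H2az1, H2az2 and H3f3b lie to the left of their points in both clones.

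The summed level of the 6 replacement genes came to 458, 471 and 460 RPKM in clone 1, to 551, 534 and 547 RPKM in clone 19, and to 393, 408 and 394 RPKM in parental cells, a ratio of 1.16 in clone 1 and 1.37 in clone 19 over parental cells. Between the clones, the mean replication-dependent sum was the higher in clone 1 and the mean replacement sum the higher in clone 19. The contrasts of both clones share the parental libraries, so the 2 are not independent of each other.

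Genes that act on histone RNA and protein moved in both directions, and every gene said here to rise or fall in a clone passed the test in it. Of 21 tested factors that transcribe or process replication-dependent histone RNA, 6 were called higher and 7 lower in clone 1 (all tested genes: 39.8% and 32.6%) and 4 higher and 10 lower in clone 19 (36.7% and 32.3%), with medians of 0.01 and 0.0045. Slbp, which encodes the stem-loop binding protein, averaged 34.8 ± 1.02 RPKM in clone 1, 34.6 ± 1.00 in clone 19 and 33.3 ± 0.663 in parental cells (SD, n = 3 each) and was not called in either clone (0.06 and 0.05, limma, adjusted p = 0.098 and 0.13). Npat, the coactivator of histone transcription, was at 0.04 in clone 1 (limma, adjusted p = 0.38) and fell by 0.13 in clone 19 (adjusted p = 0.007). Eri1, an exonuclease that trims histone mRNA ends, averaged 17.9 ± 0.316 RPKM in clone 1, 17.7 ± 0.140 in clone 19 and 22.8 ± 0.486 in parental cells (SD, n = 3 each) and fell by 0.33 and 0.35 (limma, adjusted p = 6.5e-07 and 4.6e-07). Snrpf, a core protein of spliceosomal and histone-processing particles, fell by 0.40 in clone 1 and 0.52 in clone 19. Pou2f1, which binds the octamer, rose by 0.61 in clone 1 and 0.24 in clone 19.

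Of 26 histone chaperones and exchange factors, 5 were called higher and 12 lower in clone 1, and 7 higher and 9 lower in clone 19, beside 39.8% and 32.6% of all tested genes in clone 1 and 36.7% and 32.3% in clone 19. Npm1, a nucleolar chaperone, averaged 169 ± 2.82 RPKM in clone 1, 165 ± 1.30 in clone 19 and 122 ± 1.69 in parental cells, a rise of 0.47 and 0.44. Mms22l, which works with Tonsl at replication forks, fell by 0.51 and 0.32, and Cabin1, a partner of the H3.3 chaperone HIRA, by 0.43 and 0.22. Of 6 tested histone variants outside the rule, 2 were called higher and 3 lower in clone 1, and 4 higher and 2 lower in clone 19, to be read against the same shares of all tested genes. Macroh2a2, a variant of repressed chromatin, averaged 6.05 ± 0.747 RPKM in clone 1, 4.48 ± 0.327 in clone 19 and 12.3 ± 0.220 in parental cells, a fall of 0.98 and 1.37 on the log2 scale (limma, adjusted p = 5.7e-07 and 4.2e-08). Cenpa, the centromeric H3, rose by 0.28 and 0.20, and H2aw, an H2A variant, by 0.47 and 0.83.

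S phase and mitosis genes were counted because replication-dependent histone RNA follows the cell cycle. Of 36 S phase genes, 14 were called higher and 16 lower in clone 1, where 39.8% and 32.6% of all tested genes were, and 12 higher and 11 lower in clone 19, where 36.7% and 32.3% were. Their medians were -0.03 and -0.02. Rrm2, a subunit of ribonucleotide reductase, averaged 188 ± 1.31 RPKM in clone 1, 184 ± 3.25 in clone 19 and 119 ± 1.60 in parental cells, while Ccne1, the S phase cyclin E, averaged 10 ± 0.452, 8.85 ± 0.407 and 15.2 ± 0.496 RPKM in clone 1, clone 19 and parental cells, and E2f1 12.1 ± 0.525, 14.7 ± 0.345 and 19.4 ± 0.501 RPKM (SD, n = 3 each). Of 12 mitosis genes, 9 were called higher and 3 lower in clone 1, against the same 39.8% and 32.6%, and 7 higher and 3 lower in clone 19, against 36.7% and 32.3%, with medians of 0.24 and 0.14. Ccnb2, a mitotic cyclin, rose by 0.41 and 0.19 and Aurka, a spindle kinase, by 0.39 and 0.22, while Cdk1, the mitotic kinase, fell by 0.28 in each clone. The share of cells in S phase was not measured, and its part in the histone levels was not tested.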

How the data were processed

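The authors deposited 1 table of RPKM values for 28059 Entrez gene IDs with 1 column for each of 9 libraries. Per the submitters' processing notes, GSNAP (a spliced aligner) and DESeq were used with build NCBIM37; neither versions nor the annotation or counting rule are stated there. For 24998 IDs a symbol was taken from the RefSeq table of GRCm38.p6. Because the builds differ, gene order and sequences come from RefSeq GRCm38.p6 and GENCODE M21, and no position was read from the authors' build.

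A single limma model (version 3.58.1, R 4.3.3) of 3 group means, with a trend of variance on level, was fitted to log2(RPKM + 0.5) over 12568 genes at 1 RPKM or more in at least 3 libraries. P-values were adjusted by Benjamini-Hochberg over all tested genes within a contrast, are two-sided, and were called under 0.05; each adjusted p in the text is from this fit unless a setting is named. A difference of log2(RPKM + 0.5) understates the change of low genes. The labels do not say whether replicates were separate cultures, so p-values measure only the spread between libraries. Replicate libraries correlated at 0.9967 to 0.9980 across tested genes, and no 2 held identical values.

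The depth of a library was estimated from genes above 0 in that library alone, taken as 1 read. Reads behind low members were read back within a tolerance of 0.15 reads, which gave whole reads in 49 of 53 low members; as these are estimates for single genes, no count test was run. The scripts were tested on simulated data. Members shown in full were those called in the same direction in both clones with at least 1.5-fold change, all replacement genes and the highest member of each histone family; in each companion list, up to 3 genes called in 1 direction in both clones with the largest mean change, besides Slbp and Npat, were named. The members, lists and tests were chosen with earlier results of these data known. Alternatives were a pseudocount of 0.1 or 1, a filter left out or set at 3 RPKM, median-ratio or quantile scaling, no trend, a replicate block, only the groups compared, subtraction of neighbouring genes, each library left out, a 2-fold threshold, and the sum without the highest member; the sum without the 2 highest members was added after seeing the data.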

Additional observations from a re-analysis of the deposited data

Results flagged for a closer look

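The effect against parental cells differed between the clones, by the limma contrast of clone 19 minus clone 1, in 6 of the 10 tested histone genes. The difference was 0.37 for H2az1, 0.32 for H2az2, 0.28 for H1f0, 0.19 for H3f3b, -0.19 for H1f2 and 0.63 for H2bc11 on the log2(RPKM + 0.5) scale, and that contrast called 18.5% of all tested genes higher and 24.5% lower. H2bc11 was under 1 RPKM in every clone 1 library and passed the filter only through the groups in which it is high, so its difference is a description, and its values rest on 5 to 20 reads per library. With 1 isolate per clone, what makes the clones differ was not tested.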

How the results depend on the processing

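For 30 single-gene results, 553 of 567 alternatives kept the side of the threshold and turned no called direction. A turn of sign where neither value was called is counted among these 553. Another 10 passed the threshold where the reported value did not. In 4 the direction turned and the reported or the alternative value was called. All 4 came from subtracting the neighbouring genes: H2az2 (-0.27) and H3f3a (-0.01) in clone 1, and H2az1 (-0.03) and H3f3b (-0.0033) in clone 19. Under that setting 2 replacement genes were called higher and 3 lower in clone 1. Median-ratio scaling (-0.05) and quantile normalization (-0.12) called 1 replacement gene, H3f3b, lower in clone 1, and leaving out parental replicate 1 called 1, H2az1 (-0.14), so without single libraries that count was 0 to 1. With no filter, 7 replication-dependent genes were called higher in clone 1, 12 in clone 19 and 4 in clone 19 over clone 1. That fit tested 50 low replication-dependent genes besides the 4 that passed the filter. Of all 21679 genes it called 47.2%, 44.6% and 24.5% in either direction in the same contrasts. At 3 RPKM, 0 replication-dependent genes were called lower in clone 1 and 0 higher in clone 19 over clone 1, since H2bc11 is not tested there. With a 2-fold threshold, 0 replacement genes were called higher in any contrast, and 0 replication-dependent genes lower in clone 1 or in either direction between the clones. Leaving out single libraries gave 1 to 2 replication-dependent genes lower and 4 to 5 replacement genes higher in clone 19 than in clone 1; the 2 lower genes came without clone 19 replicate 1, where H2bc4 (-0.15) joined H1f2. The ratio of the replication-dependent sum (2.57 to 2.68 in clone 1 and 2.41 to 2.52 in clone 19 without single libraries) was 2 and 1.97 without H1f2 and 1.32 and 1.35 without H1f2 and H2bc4. Quantile normalization called 3 histone RNA factors higher in clone 1 and 2 in clone 19. Apart from the filter, the threshold and the members left out, the cause was not tested. The replicate numbers did not pair the libraries: deviations of same-numbered libraries correlated at -0.0353 to 0.123 over 9 pairs, against -0.14 to 0.0806 for other numbers. With a replicate block, all 12 counts of called members stayed within 1.5 times the reported ones; 5 replacement genes were called higher in clone 19 than in clone 1 where 4 were without it. Of the low replication-dependent genes, the 47 whose reads could be read back had at most 21 reads in a library, which limits the precision of their values.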
